A study of Mus musculus with 8 samples.

Results

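LPS+RCMNs was compared with untreated control in MH-S, an established line of mouse alveolar macrophages, across all genes of the authors' expression table. The comparison uses 6 of the 8 samples of the series, chosen by their titles: 3 control libraries, from cells given phosphate-buffered saline (PBS), and 3 libraries from cells given lipopolysaccharide (LPS) at 100 ng/mL together with RCMNs at 1 µg/mL, doses that the series' design text gives. RCMNs are the material of the series, whose title concerns nanoparticles responsive to reactive oxygen species. The other 2 samples, given LPS alone, did not enter the fit. No library from cells given RCMNs without LPS was analysed here, so the parts of LPS and of RCMNs in any difference below cannot be told apart. Exposure time is not stated in the labels. MH-S is an immortalised line, so its cells lack the lung around them, and whether its replicates were grown apart is not in the labels. The p-values thus reflect the spread among these samples alone, and it may be technical.

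LPS, a component of the outer membrane of Gram-negative bacteria, is bound by CD14 and MD-2 and signals through Toll-like receptor 4. The receptor acts through MyD88 to NF-kB and the MAP kinases, which switch on cytokine and chemokine genes, and through TRIF to interferon regulatory factors, which switch on type I interferon and its target genes. Macrophages also raise feedback inhibitors of these routes and, under oxidative stress, the targets of Nrf2, which governs antioxidant genes. Alveolar macrophages clear surfactant, dust and dying cells from the airspaces.

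Of 17518 listed genes, 11464 had enough counts to be tested, and 602 of these differed at an adjusted p of 0.05, or 5.25% (edgeR's quasi-likelihood test, Benjamini-Hochberg adjustment; a gene past this threshold is described as called). With LPS+RCMNs, 360 genes rose (3.14% of those tested) and 242 fell (2.11%). More rises than falls were large: 168 rose and 76 fell by at least 2-fold, and 59 rose and 16 fell by at least 4-fold. By at least 8-fold 25 rose. Falls of at least 8-fold were not counted but exist, among them that of Lifr, described at the end. The lowest log2 fold change of a tested gene was -3.46. The median log2 fold change was 0.94 among the genes that rose and -0.74 among those that fell. At an unadjusted p under 0.05 there were 2527 genes. On log2(FPKM + 1), which carries no TMM scaling, limma called 282 genes higher and 337 lower, so that rises were 45.6% of the calls against 59.8% here. Changes of single genes are given below in log2 units, with ± for the SE.

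Libraries held 18.6 to 20.4 M (mega) counts, with 13780 to 14263 genes counted. A count of 0 allows a level of 0.139 to 0.163 CPM, depending on the library (3 counts at the scaled library size, counting error only). The groups separated on the first principal component, with 49.6% of the variance. The next, with 29.2%, set control replicate 1 and LPS+RCMNs replicate 2 apart from the other 4 libraries. Control replicate 1 differed from the other controls with a chi-square of 47.4 and 44.5 per degree of freedom, and LPS+RCMNs replicate 2 from its group with 42.7 and 35.5. The remaining pair of controls gave 1.93 and the remaining treated pair 2.82. No label gives a reason for this. Without these 2 libraries (2 against 2), 2688 genes were higher (23.2% of 11577 tested) and 2511 lower (21.7%), 44.9% in all. With all 6 libraries and a model term for those 2, 1354 genes were higher (11.8% of 11464) and 1180 lower (10.3%), 22.1% in all. All 602 genes called with 6 libraries were called in the same direction in both of these fits. Both reuse libraries of the main fit, so this sharing is not independent support. The 2 against 2 fit measures spread only between the closely similar libraries.

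Leaving out any of the 4 similar libraries lowered the counts. They were 115 higher and 39 lower without control replicate 2, 96 and 31 without control replicate 3, 105 and 39 without LPS+RCMNs replicate 1, and 86 and 25 without LPS+RCMNs replicate 3. They rose to 545 and 339 without control replicate 1, and to 705 and 374 without LPS+RCMNs replicate 2. In no fit was a gene of the 602 called in the opposite direction, and every fit shared libraries with the main one. Of these genes, 68 were called under every one of 16 alternative fits, 56 higher and 12 lower. A gene said below to be called in every fit that gave a value may have been left out of some of the 16 by a filter.

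**Figure D1:**
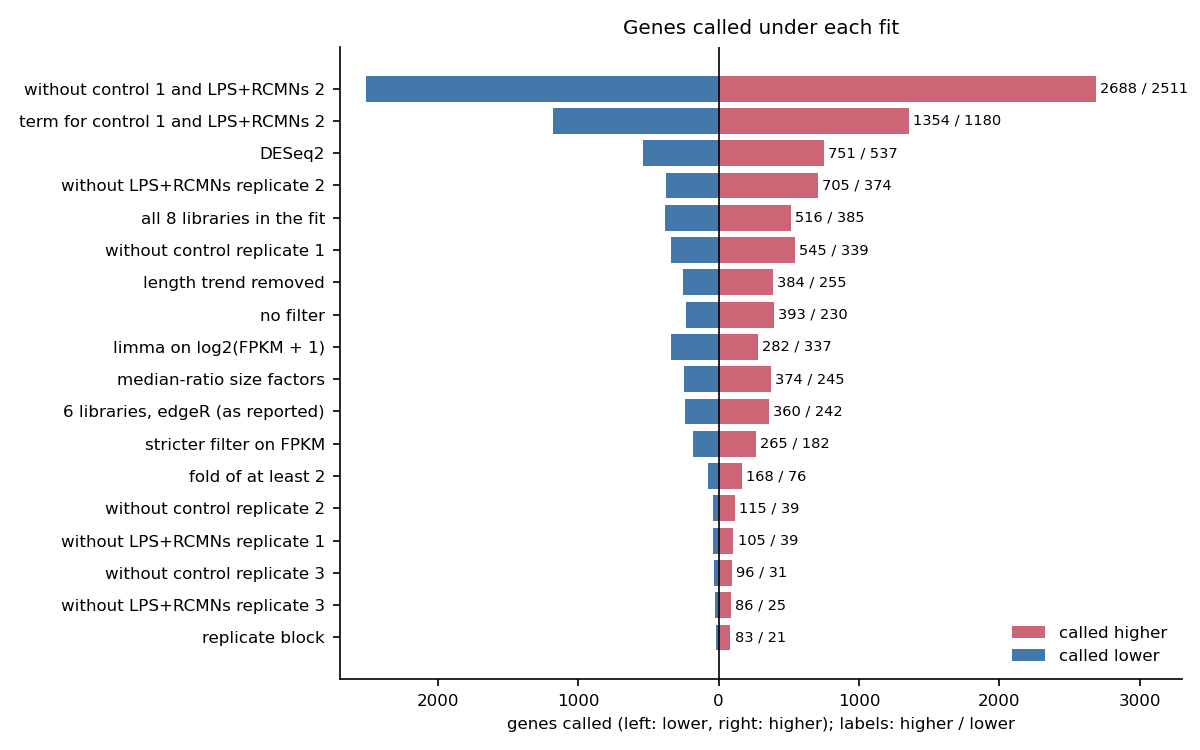
Number of genes called lower (bars to the left) and higher (bars to the right) with LPS+RCMNs under each fit, with the counts beside the bars as higher / lower. The counts run from 83 higher and 21 lower with the replicate number as a block to 2688 and 2511 in the 2 against 2 fit, against 360 and 242 as reported.

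Markers of the cell type were checked in each library. The 10 general macrophage markers, such as Csf1r and Cd68, were all tested and summed to 5355 to 6571 CPM (counts per M of scaled library size) in control and 7417 to 9400.1 CPM with LPS+RCMNs. Of these markers Adgre1, Fcgr1, Lyz2 and Itgam rose. Adgre1 encodes the surface antigen F4/80. Its level was 308, 321 and 328 CPM in control replicates 1, 2 and 3 and 645, 582 and 680.2 CPM in LPS+RCMNs replicates 1, 2 and 3, a log2 fold change of 1.00 ± 0.09 (SE), called in each of the alternative fits. In bulk RNA, a change in the share of cells and a change in RNA per cell cannot be told apart. Of 8 markers of alveolar macrophages in the lung only 3 were tested, and their sum of 267 to 329 CPM in control and 146 to 173 CPM with LPS+RCMNs was mostly Mrc1. Car4, Ear2 and Chil3 had no count, and Siglecf and Pparg were at 0 to 0.544 CPM in every library, so defining markers of that cell type are at or near 0 in this line. Markers of other cells stayed low: at most 14.4 CPM in sum for neutrophils, with S100a9 and Elane at 0, 0.315 CPM for lymphocytes and 0.218 CPM for epithelium. Those of fibroblasts and endothelium summed to 0.464 to 1.35 CPM in control and 1.47 to 2.84 CPM with LPS+RCMNs, and their part in the results was not tested. Erythroid markers summed to 0.882 CPM in control replicate 1, 0.707 CPM in LPS+RCMNs replicate 2 and 22 to 37.2 CPM in the other 4 libraries.

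The largest changes among well-expressed genes are shown first with their promoters, as the sequence upstream of genes that move together. Genes were ranked by fold among the 430 called ones whose mean reached 5 FPKM (fragments per kilobase of transcript and M reads) and whose groups did not overlap. For genes ranked in this way, lack of overlap between groups was fixed by the choice, here and below. From the top 15 in each direction, the 6 leading rises and 4 leading falls with a promoter entry are given. Each runs 5′ to 3′ on the gene's strand from 250 bases before to 50 bases after a RefSeq start site (build GRCm38.p6; the first listed start where there are several). Capitals mark matches, on either strand, to the motifs of AP-1 (TGANTCA), the interferon-stimulated response element core (ISRE core, GAAANNGAA) or NF-kB. An AP-1 match that starts TGAC can also lie within a match to the antioxidant response element (ARE, TGACNNNGC), which was searched too, as were CRE (TGACGTCA), EGR (GCGTGGGCG), an E-box (CACGTG) and the CArG box.

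Among the rises, Lcn2 encodes lipocalin-2, which binds bacterial iron carriers, Saa3 a serum amyloid A protein of the acute phase, Acod1 the enzyme that makes itaconate, Mmp12 the macrophage elastase, Cxcl2 a chemokine for neutrophils and Il1rn the interleukin-1 receptor antagonist. Their promoters lie at chr2:32387690-32387989, minus strand (Lcn2), chr7:46715627-46715926, minus strand (Saa3), chr14:103046762-103047061, plus strand (Acod1), chr9:7344147-7344446, plus strand (Mmp12), chr5:90903649-90903948, plus strand (Cxcl2) and chr2:24336610-24336909, plus strand (Il1rn).
Lcn2: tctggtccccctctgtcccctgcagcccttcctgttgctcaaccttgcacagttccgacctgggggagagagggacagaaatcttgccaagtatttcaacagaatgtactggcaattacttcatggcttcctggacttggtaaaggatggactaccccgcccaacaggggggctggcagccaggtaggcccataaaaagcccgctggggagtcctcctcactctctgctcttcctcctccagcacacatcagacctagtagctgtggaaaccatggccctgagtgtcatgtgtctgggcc
Saa3: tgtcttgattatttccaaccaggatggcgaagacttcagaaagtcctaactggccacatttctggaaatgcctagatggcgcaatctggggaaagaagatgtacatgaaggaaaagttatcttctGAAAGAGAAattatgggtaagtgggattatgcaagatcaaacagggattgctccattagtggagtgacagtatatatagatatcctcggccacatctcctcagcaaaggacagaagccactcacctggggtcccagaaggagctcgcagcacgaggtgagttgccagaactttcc
Acod1: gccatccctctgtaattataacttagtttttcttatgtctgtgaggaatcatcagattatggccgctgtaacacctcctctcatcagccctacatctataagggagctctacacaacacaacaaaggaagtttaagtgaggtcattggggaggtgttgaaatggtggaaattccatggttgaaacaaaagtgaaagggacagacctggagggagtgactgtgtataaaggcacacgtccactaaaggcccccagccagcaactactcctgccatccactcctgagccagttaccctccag
Mmp12: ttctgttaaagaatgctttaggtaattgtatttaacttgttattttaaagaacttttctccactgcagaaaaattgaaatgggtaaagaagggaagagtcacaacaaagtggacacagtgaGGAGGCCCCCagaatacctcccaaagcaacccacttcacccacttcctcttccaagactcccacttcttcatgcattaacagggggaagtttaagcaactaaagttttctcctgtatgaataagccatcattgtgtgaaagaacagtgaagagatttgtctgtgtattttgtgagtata
Cxcl2: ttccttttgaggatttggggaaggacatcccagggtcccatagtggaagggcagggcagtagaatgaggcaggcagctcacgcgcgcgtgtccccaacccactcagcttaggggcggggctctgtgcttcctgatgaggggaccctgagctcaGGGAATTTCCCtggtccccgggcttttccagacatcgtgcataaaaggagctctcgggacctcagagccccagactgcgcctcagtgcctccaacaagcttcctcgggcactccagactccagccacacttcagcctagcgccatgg
Il1rn: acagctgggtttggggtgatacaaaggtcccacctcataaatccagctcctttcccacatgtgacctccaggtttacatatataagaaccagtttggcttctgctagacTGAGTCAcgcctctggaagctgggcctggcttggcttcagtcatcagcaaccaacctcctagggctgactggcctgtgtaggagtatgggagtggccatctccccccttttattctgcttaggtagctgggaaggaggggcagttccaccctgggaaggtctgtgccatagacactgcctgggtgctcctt

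Among the falls, Ankrd37 encodes an ankyrin repeat protein induced in low oxygen, Selenop the selenium carrier selenoprotein P and C1qc a chain of complement C1q, while 9930111J21Rik1 belongs to a family of near-identical copies whose reads may be shared. Their promoters lie at chr8:45999801-46000100, minus strand (Ankrd37), chr11:48979332-48979631, minus strand (9930111J21Rik1), chr15:3270517-3270816, plus strand (Selenop) and chr4:136892865-136893164, minus strand (C1qc).
Ankrd37: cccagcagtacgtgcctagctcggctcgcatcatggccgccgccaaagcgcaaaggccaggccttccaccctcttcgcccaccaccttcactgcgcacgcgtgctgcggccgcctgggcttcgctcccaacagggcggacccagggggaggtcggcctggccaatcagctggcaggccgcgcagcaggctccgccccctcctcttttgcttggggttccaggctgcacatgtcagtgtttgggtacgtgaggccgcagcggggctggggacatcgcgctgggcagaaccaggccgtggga
9930111J21Rik1: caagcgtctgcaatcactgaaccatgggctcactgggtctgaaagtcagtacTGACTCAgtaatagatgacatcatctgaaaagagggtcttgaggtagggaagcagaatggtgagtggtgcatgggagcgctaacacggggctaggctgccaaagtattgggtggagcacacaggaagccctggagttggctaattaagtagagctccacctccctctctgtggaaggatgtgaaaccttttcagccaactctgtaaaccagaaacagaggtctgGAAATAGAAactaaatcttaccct
Selenop: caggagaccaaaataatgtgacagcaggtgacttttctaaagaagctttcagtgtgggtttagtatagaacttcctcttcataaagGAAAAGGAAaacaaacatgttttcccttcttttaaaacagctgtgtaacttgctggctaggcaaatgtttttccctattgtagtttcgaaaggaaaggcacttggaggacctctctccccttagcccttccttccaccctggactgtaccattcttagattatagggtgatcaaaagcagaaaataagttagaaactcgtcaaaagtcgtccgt
C1qc: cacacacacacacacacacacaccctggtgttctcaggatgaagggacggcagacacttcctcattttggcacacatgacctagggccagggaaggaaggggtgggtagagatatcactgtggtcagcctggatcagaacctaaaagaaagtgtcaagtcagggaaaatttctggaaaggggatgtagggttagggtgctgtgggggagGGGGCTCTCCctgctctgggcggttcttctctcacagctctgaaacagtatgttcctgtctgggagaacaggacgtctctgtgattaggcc

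In these windows the ISRE core starts 125 bases before the start site in Saa3, and AP-1 starts 141 bases before it in Il1rn. Selenop holds the ISRE core 164 bases before its start site, and 9930111J21Rik1 holds AP-1 198 bases before and the ISRE core 26 bases after the site. NF-kB matches start 97 bases before the site in Cxcl2, where matches on both strands overlap, 129 bases before it in Mmp12 and 41 bases before it in C1qc. No motif searched was found in the windows of Lcn2, Acod1 and Ankrd37, which says only that these letters are not there. Over all 32851 promoter entries, 7.81% held AP-1, 8.56% the ISRE core and 8.46% NF-kB. Among 343 entries of genes that rose the shares were 10.2%, 13.1% and 12%, among 252 entries of genes that fell 5.95%, 7.14% and 11.5%, and among the 11802 entries of genes tested 5.17%, 7.15% and 10.4%. The ARE stood in 12.4% of all entries, 14.5% of those tested, 16.3% of those that rose and 13.1% of those that fell. Of all entries, 1.79% held CRE, 0.612% EGR, 7.15% the E-box and 1.63% CArG. Among entries of genes tested these shares were 3.09%, 1.23%, 10.1% and 1.15%. For genes that rose they were 1.17%, 0.292%, 8.75% and 1.46%, and for genes that fell 2.78%, 0%, 10.7% and 1.19%. These shares are a description and were not tested.

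The gene lists below are described by their counts of calls, to be read against 3.14% of all genes tested that rose, 2.11% that fell and an overall median of -0.0045, and without the 2 libraries against 23.2% and 21.7%. Genes of the acute phase and of defence against bacteria rose. Of 19 tested on this list 15 rose and none fell, with a median log2 fold change of 1.65. The 4 not called had unadjusted p-values under 0.05 and positive values, and without the 2 libraries that stood apart all 19 were higher. DESeq2 also called none lower, and without any 1 of the 4 similar libraries 10 to 12 were higher. Lcn2 stood at 0.139, 0.15 and 0.2 CPM in control replicates 1 to 3 and at 181, 143 and 165 CPM in LPS+RCMNs replicates 1 to 3. All treated libraries lay far above all controls, in which the gene was near the floor with 10 counts in all. Its log2 fold change was 9.91 ± 0.19 (SE) (edgeR adjusted p = 1.25e-06), and over the alternative fits it ran from 7.35 to 10.08. These fits include limma on log2(FPKM + 1), where the added 1 shrinks a fold change that starts near 0 FPKM. With 10 control counts the size for Lcn2 is uncertain. Saa3 was at 20.5, 12.6 and 10.1 CPM in control and 632, 710.1 and 648 CPM with LPS+RCMNs. Here too the groups were far apart, and the log2 fold change was 5.52 ± 0.27 (SE) (edgeR adjusted p = 0.00035). Between the 2 libraries that stood apart the log2 ratio was 5.11. Acod1 read 6.18, 9.12 and 9.51 CPM in control and 125, 74 and 116 CPM with LPS+RCMNs, where replicate 2 was lowest, a log2 fold change of 3.67 ± 0.26 (SE).

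Complement, protease inhibitor and enzyme genes of the same list rose as well. C3, the central complement protein, rose by 1.65 log2 units and Cfb, complement factor B, by 2.96. Hp, which encodes haptoglobin, a binder of free haemoglobin, was at 20.3, 18.6 and 18.1 CPM in control and 46.3, 48.6 and 46.1 CPM with LPS+RCMNs. These 6 values barely varied within groups, and the log2 fold change was 1.30 ± 0.09 (SE). Slpi, an inhibitor of neutrophil elastase, rose by 1.18 log2 units and Lyz2, lysozyme, by 0.68. Nos2, which makes nitric oxide, rose by 4.39 ± 0.60 log2 units but only from 0.139, 0 and 0.15 CPM to 1.83, 2.99 and 1.68 CPM, and its 6 control counts leave the size uncertain. Ptgs2, which encodes cyclooxygenase-2, the enzyme that starts prostaglandin synthesis, rose by 2.89 ± 0.63 log2 units. Lcn2, Saa3, Acod1, C3, Cfb, Hp and Slpi were called in every alternative fit that gave a value. For Lyz2 and Ptgs2 the call was lost without any of the 4 similar libraries and for Nos2 without control replicate 3. Clec4d (1.12) was another called member of the list, by log2 fold change. For Clec4d the call was lost without LPS+RCMNs replicate 3.

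**Figure D2:**
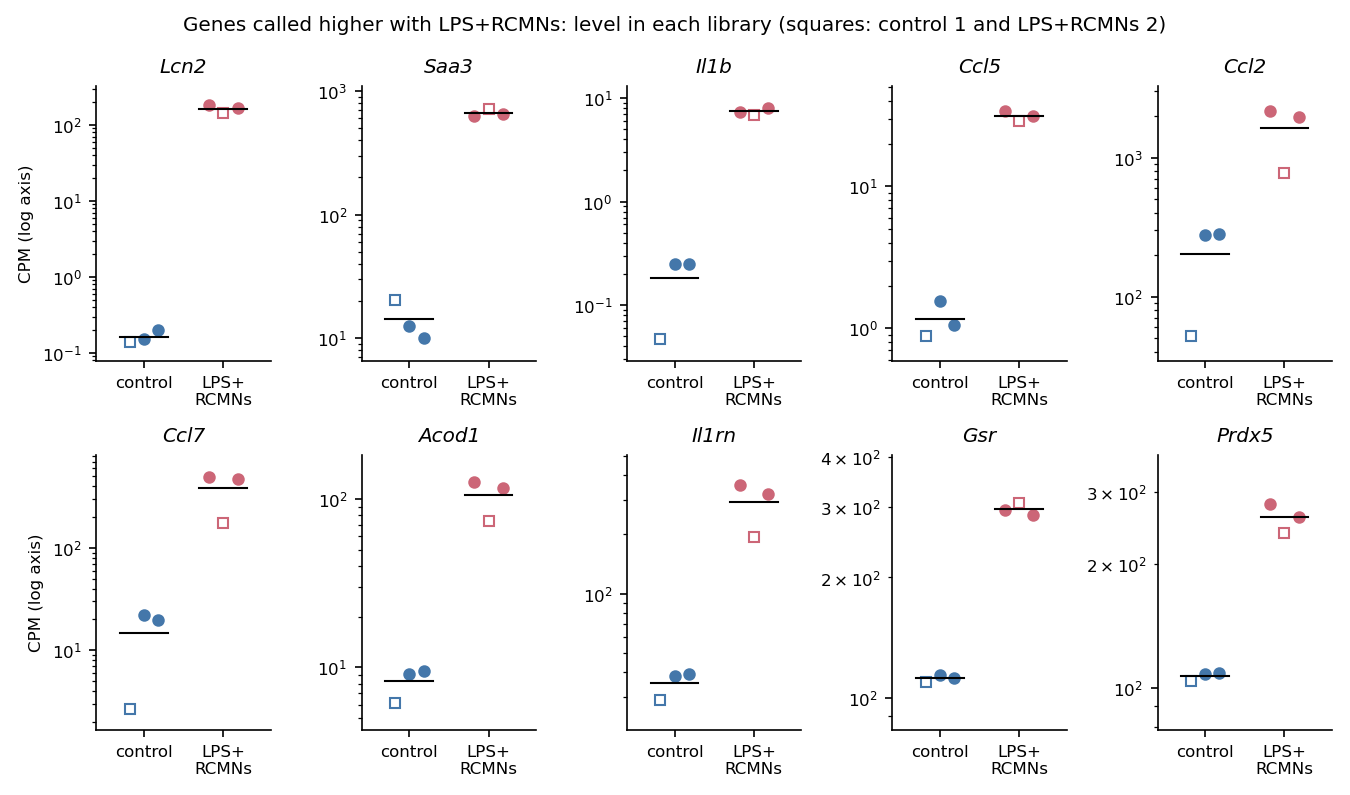
Level of 10 genes called higher with LPS+RCMNs in each of the 6 libraries, in CPM on a log axis, with a line at each group's mean. Open squares are control replicate 1 and LPS+RCMNs replicate 2. In all 10 panels the groups do not overlap, a condition for ranking Lcn2, Saa3, Ccl5, Ccl2, Ccl7, Acod1 and Il1rn by fold. Il1b, Ccl2 and Ccl7 spread most among the controls, and Gsr and Prdx5 least.

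Among cytokines, those of the interleukin-1 family, interleukin-6 and granulocyte colony-stimulating factor rose, most of them from very low control levels. Of 25 tested, 5 rose, 1 fell and 19 were not called (median log2 fold change 0.27); 13 were higher and 4 lower of 27 without the 2 libraries, and 5 higher and none lower without any 1 of the 4 similar ones. Il1b, the fever-inducing interleukin-1 beta, read 0.0464, 0.251 and 0.25 CPM in control and 7.33, 6.85 and 8.09 CPM with LPS+RCMNs. The treated libraries were alike and every control was lower, on 11 control counts. The log2 fold change was 5.32 ± 0.38 (SE) (edgeR adjusted p = 0.000901), and it ran from 2.50 to 5.62 over the alternatives. For Il1b, and for Csf3 below, these include limma on log2(FPKM + 1), where the added 1 shrinks changes from low levels. Il1a, encoding interleukin-1 alpha, rose by 3.75 ± 0.33 log2 units and Il6 by 3.24 ± 0.33, the latter to 4.36, 4.3 and 3.99 CPM in the treated libraries. Csf3, a growth factor for neutrophils, had 6 counts in control and 6.47, 3.59 and 4.62 CPM with LPS+RCMNs (log2 fold change 5.55 ± 0.63, 2.01 to 7.32 over the alternatives).

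Il1rn, the secreted antagonist of both interleukin-1 forms, stood well above them in CPM. It was at 28.8, 38.1 and 38.9 CPM in control and 358, 194 and 322 CPM with LPS+RCMNs. The lowest treated library, replicate 2, was still well above the highest control, and the log2 fold change was 3.05 ± 0.25 (SE) (edgeR adjusted p = 0.00158). Il1r2, the decoy receptor that traps interleukin-1, fell from 27.4, 33.3 and 34.6 CPM to 14.4, 8.87 and 15.8 CPM, a log2 fold change of -1.29 ± 0.22 (SE). Il15, a cytokine for lymphocytes, had a log2 fold change of -0.98 ± 0.22 and was also called lower. Tnf, the tumour necrosis factor, was at 28.1, 84 and 81 CPM in control and 186, 166 and 184 CPM with LPS+RCMNs. Every treated library was above every control, but control replicate 1 was far below the other 2, and the log2 fold change of 1.47 ± 0.37 (SE) did not pass the test (edgeR adjusted p = 0.0647). Without control replicate 1 it was 1.13 and passed. Il10 was not tested, at 0.0464 to 0.2 CPM in all 6 libraries. Il1b, Il1a, Il6, Csf3 and Il1rn were called in every alternative fit that gave a value. For Il1r2 the call was lost without any of the 4 similar libraries and for Il15 without any of the 4 similar libraries or control replicate 1.

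Several chemokine genes for monocytes, neutrophils and T cells rose. Of 14 tested, 6 rose, 1 fell and 7 were not called (median 1.51); 11 were higher and 2 lower of 14 without the 2 libraries, and 1 to 2 higher and 1 lower without any 1 of the 4 similar ones. Ccl5, which attracts T cells and monocytes, read 0.882, 1.55 and 1.05 CPM in control and 33.9, 28.9 and 31 CPM with LPS+RCMNs. Both groups were tight and far apart, with a log2 fold change of 4.75 ± 0.21 (SE) (edgeR adjusted p = 0.000247). Ccl2, the main chemokine for monocytes, was at 51.7, 278 and 281 CPM in control and 2175, 780.0 and 1971 CPM with LPS+RCMNs. Control replicate 1 was far below the other controls and LPS+RCMNs replicate 2 below the other treated libraries, yet the groups did not overlap. The log2 fold change of 3.01 ± 0.67 (SE) had an edgeR adjusted p of 0.049. Ccl7, a monocyte chemokine encoded beside Ccl2 on chromosome 11, was at 2.69, 22.2 and 19.8 CPM in control and 499, 176 and 469 CPM with LPS+RCMNs, the same libraries lowest in each group, and rose by 4.68 ± 0.76 log2 units. Between the 2 libraries that stood apart, the log2 ratio was 3.91 for Ccl2 and 6.03 for Ccl7, and the fold change fitted to the other 4 was 2.89 and 4.53.

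Cxcl2 was at 0.604, 2.15 and 2.1 CPM in control and 20.0, 5.87 and 16.4 CPM with LPS+RCMNs, and rose by 3.13 ± 0.58 log2 units. The groups did not overlap. Ccl12, another monocyte chemokine, rose by 2.82 ± 0.43 log2 units and Cxcl10, a target of interferon, rose by 1.48 ± 0.22 to 4.96, 5.82 and 6.35 CPM. Pf4, platelet factor 4, fell from 82.9, 91.6 and 93.2 CPM to 54.2, 54.9 and 57.3 CPM (log2 fold change -0.69 ± 0.08). The macrophage inflammatory proteins Ccl3 and Ccl4 did not pass the test. Ccl3 was at 87.3, 222 and 193 CPM in control and 703, 203 and 643 CPM with LPS+RCMNs, where replicate 2 lay within the range of the controls. Its log2 fold change was 1.63 ± 0.51 (SE) (edgeR adjusted p = 0.117), and that of Ccl4 was 1.53 ± 0.47 (SE); without the 2 libraries both were called higher, at 1.70 and 1.44. Cxcl1 was not tested, with a count in 1 of the 6 libraries. Ccl5 was called in every alternative fit that gave a value. For Ccl2, Ccl7 and Cxcl2 the call was lost without any of the 4 similar libraries, for Cxcl10 without control replicate 2 or 3 or LPS+RCMNs replicate 3 and for Ccl12 without control replicate 3 or LPS+RCMNs replicate 1 or 3.

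Among the receptors and adaptors for LPS few genes were called, and Toll-like receptors 2 and 5 fell. Of 34 tested genes for sensing LPS and other microbial products, 1 rose, 3 fell and 30 were not called (median -0.013); 15 were higher and 11 lower of 34 without the 2 libraries, and none higher and 0 to 1 lower without any 1 of the 4 similar ones. Tlr2, which recognises bacterial lipoproteins, was at 101, 98 and 99.8 CPM in control and 53.1, 64.9 and 56.4 CPM with LPS+RCMNs. All controls lay above all treated libraries, and Tlr2 fell by 0.78 on the log2 scale (SE 0.09). Tlr5, the flagellin receptor, fell by 0.65 log2 units and Irak1, a kinase below the receptors, by 0.44. Tlr6, a partner of Tlr2, rose by 0.55 log2 units. Tlr4 was at 131, 84.4 and 86.8 CPM in control and 107, 63.5 and 108 CPM with LPS+RCMNs. The groups overlapped, and its log2 fold change of -0.12 ± 0.25 (SE) did not pass the test; without the 2 libraries it was 0.33 and called higher. Cd14 was at 119, 227 and 227 CPM in control and 394, 317 and 387 CPM with LPS+RCMNs, without overlap, but its log2 fold change of 0.94 ± 0.24 (SE) did not pass the test (edgeR adjusted p = 0.0716). Without the 2 libraries that stood apart Cd14 was called higher, at 0.78, as it was with a term for them, at 0.99.

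Several inhibitors of Toll-like receptor and cytokine signalling rose. On the list of NF-kB targets and feedback regulators 7 of 40 rose and 1 fell (median 0.34); 21 were higher and 9 lower of 40 without the 2 libraries, and 2 to 4 higher and 1 lower without any 1 of the 4 similar ones. Irak3, an inhibitory member of the receptor-associated kinases, was at 22.6, 17.7 and 17.8 CPM in control and 53.4, 53.1 and 53.6 CPM with LPS+RCMNs. Treated libraries were nearly equal, and the log2 fold change was 1.46 ± 0.12 (SE) (edgeR adjusted p = 0.00145). Socs3, which limits signalling by interleukin-6, was at 19.5, 15 and 15 CPM and 48.3, 44.5 and 47.2 CPM, a log2 fold change of 1.50 ± 0.13 (SE). Zc3h12a, an RNase that degrades cytokine messenger RNAs, rose by 1.11 log2 units, Traf1 by 2.04 and Nfkbiz, a nuclear inhibitor-like cofactor of NF-kB, by 1.15. Nfkbie, an inhibitor that holds NF-kB in the cytoplasm, fell from 6.45, 6.76 and 7.11 CPM to 2.69, 2.61 and 2.21 CPM, a log2 fold change of -1.43 ± 0.17 (SE). Of 32 immediate early genes, the fast transient responders to stimulation, none rose and 3 fell: Klf4 by 1.56, Etv5 by 0.57 and Nr4a1 by 0.56. At an unadjusted p under 0.05, 4 of them were higher; DESeq2 called 2 higher and limma none, and 11 were higher and 10 lower without the 2 libraries. Irak3 and Socs3 were called in every alternative fit that gave a value. For Tlr5, Irak1, Tlr6, Klf4, Etv5 and Nr4a1 the call was lost without any of the 4 similar libraries and for Zc3h12a and Traf1 without control replicate 3 or LPS+RCMNs replicate 1 or 3. For Tlr2 the call was lost without LPS+RCMNs replicate 3 and for Nfkbiz without control replicate 2 or 3 or LPS+RCMNs replicate 3. Tnfrsf1b (1.00) and Gadd45b (0.73) were further called members of these lists, by log2 fold change. For Tnfrsf1b and Gadd45b the call was lost without any of the 4 similar libraries.

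A minority of interferon target genes rose. Of 54 tested, 12 rose, 1 fell and 41 were not called (median 0.57); 44 were higher and 3 lower of 54 without the 2 libraries, and 2 higher and 1 lower without any 1 of the 4 similar ones. Ifitm3, which blocks viral entry, was at 191, 186 and 192 CPM in control and 315, 286 and 315 CPM with LPS+RCMNs. The groups were apart and the rise was 0.69 ± 0.08 (SE) on the log2 scale. Oasl1, of the oligoadenylate synthetase family, rose by 0.93 ± 0.11 log2 units and Bst2, which tethers budding virus, by 0.64 ± 0.08. Gbp2, a guanylate-binding protein, had the largest rise of the list, 3.09 ± 0.43 (SE), from 0.604, 0.351 and 0.5 CPM to 4.96, 2.18 and 5.46 CPM. Irf7, the transcription factor that amplifies interferon production, rose by 1.79 log2 units, Rsad2 by 1.83, Isg15 by 1.96 and Ifit1 by 1.92. In Irf7 the treated libraries read 53.7, 24.3 and 54.6 CPM, lowest in replicate 2, against 10.7, 13.9 and 13.7 CPM in control. Ifngr1, a chain of the receptor for interferon gamma, fell by 0.70 log2 units. For Bst2, Gbp2, Irf7, Rsad2 and Isg15 the call was lost without any of the 4 similar libraries and for Ifit1 without any of the 4 similar libraries or control replicate 1. Gbp3 (1.26), Ifi211 (1.07) and Oas1g (0.88) were further called members of the list, by log2 fold change. For Gbp3, Ifi211 and Oas1g the call was lost without any of the 4 similar libraries.

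Many surface receptors with activating or inhibitory motifs rose: of 33 tested Fc, lectin, Siglec, paired immunoglobulin-like and Sirp receptors, 13 rose, none fell and 20 were not called (median 0.84); 29 were higher and 1 lower of 33 without the 2 libraries, and 3 to 5 higher and none lower without any 1 of the 4 similar ones. DESeq2 and limma called none lower either. Siglece, a sialic acid receptor that inhibits, was at 6.69, 5.91 and 5.86 CPM in control and 21.3, 19.8 and 22 CPM with LPS+RCMNs. Its groups were tight and apart, with a log2 fold change of 1.77 ± 0.12 (SE) (edgeR adjusted p = 0.00081). Pilra, an inhibitory paired receptor, was at 50.6, 60.5 and 66.5 CPM and 179, 134 and 176 CPM and rose by 1.46 ± 0.15 log2 units. Its activating partners Pilrb1 and Pilrb2 rose by 1.31 log2 units and 1.16, but they are near-identical copies whose reads may be shared. Fcgr1, the high-affinity receptor for IgG, rose by 1.39 ± 0.20 log2 units from 51.8, 78.4 and 79.4 CPM, and Fcgr4 by 1.21. The lectin receptor Clec4a1 was at 3.81, 3.81 and 5.45 CPM in control and 29.9, 14.6 and 31.6 CPM with LPS+RCMNs, a log2 fold change of 2.54 ± 0.32 (SE). Klra2, a lectin-like receptor of the Ly49 family outside this list, rose by 2.63 ± 0.36 log2 units. Siglece, Pilra and Clec4a1 were called in every alternative fit that gave a value. For Pilrb2 and Fcgr4 the call was lost without any of the 4 similar libraries or control replicate 1 and for Fcgr1 without LPS+RCMNs replicate 1 or 3. For Klra2 the call was lost without control replicate 2 or 3 or LPS+RCMNs replicate 3 and for Pilrb1 without control replicate 3 or LPS+RCMNs replicate 1 or 3. Treml4 (2.10), Sirpb1c (1.66), Clec4a2 (1.02), Clec5a (0.77), Cd300ld (0.76) and Clec12a (0.54) were further called members of the list, by log2 fold change. For Treml4, Sirpb1c, Clec4a2 and Clec5a the call was lost without any of the 4 similar libraries, for Cd300ld without any of the 4 similar libraries or control replicate 1 and for Clec12a without any of the 4 similar libraries or control replicate 1 or LPS+RCMNs replicate 2.

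A few receptors for bacterial and lipid attractants rose, from low levels. Of 31 tested genes of attractant receptors and migration, 4 rose and 1 fell (median 0.37); 19 were higher and 10 lower of 31 without the 2 libraries, and 3 higher and none lower without any 1 of the 4 similar ones. Fpr1, the receptor for formylated bacterial peptides, was at 0.0464, 0.301 and 0.4 CPM in control and 12.9, 4.3 and 13.2 CPM with LPS+RCMNs. Treated replicate 2 was lowest of its group but still above every control, and the rise was 5.33 ± 0.66 (SE) on the log2 scale, on 15 control counts. Its relative Fpr2 rose by 3.15 ± 0.31 log2 units. Plxna1, a semaphorin receptor, was better expressed, at 128, 138 and 136 CPM and 356, 249 and 339 CPM, and rose by 1.23 ± 0.14 log2 units. Cysltr1, a leukotriene receptor, fell by 0.50 log2 units. Among 28 integrin and adhesion genes 4 rose and none fell (median 0.22); 16 were higher and 6 lower of 28 without the 2 libraries, and 0 to 1 higher and none lower without any 1 of the 4 similar ones. Itgam and Itgb2, the chains of complement receptor 3, rose by 0.70 ± 0.11 log2 units and 0.71 ± 0.12, and Itga5 by 1.10 ± 0.22. DESeq2 called 6 of that list higher and none lower, and 3 were lower at an unadjusted p under 0.05. Fpr1, Fpr2 and Plxna1 were called in every alternative fit that gave a value. For Cysltr1, Itgam, Itgb2 and Itga5 the call was lost without any of the 4 similar libraries. Ltb4r1 (3.36, on 5 control counts) was another called member of these lists, by log2 fold change. For Ltb4r1 the call was lost without any of the 4 similar libraries.

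A few genes for proteases and matrix were called: the metalloproteinases Mmp12, Mmp9 and Mmp8 and the matrix protein Thbs1 rose, and F13a1 and Cst3 fell. Of 30 tested, 4 rose, 2 fell and 24 were not called (median 0.22); 18 were higher and 3 lower of 32 without the 2 libraries, and 1 higher and 1 lower without any 1 of the 4 similar ones. Mmp12 was at 4.18, 12.9 and 12.5 CPM in control and 121, 45.3 and 129.6 CPM with LPS+RCMNs. Control replicate 1 and LPS+RCMNs replicate 2 were each lowest in their group, and the rise was 3.33 ± 0.53 (SE). Mmp9, a gelatinase, was at 29.1, 41.3 and 40.7 CPM and 153, 121 and 141 CPM, a log2 fold change of 1.90 ± 0.16 (SE) (edgeR adjusted p = 0.00176). Mmp8, the neutrophil collagenase, rose by 1.79 ± 0.31 log2 units and Thbs1, thrombospondin-1, by 1.26 ± 0.24. F13a1, which encodes the crosslinking chain of coagulation factor XIII, fell from 3.3, 3.61 and 3.3 CPM to 0.754, 0.381 and 0.683 CPM, a log2 fold change of -2.47 ± 0.29 (SE). Cst3, cystatin C, an inhibitor of cathepsins, fell by 0.56 log2 units. Mmp9 was called in every alternative fit that gave a value. For Mmp12, Mmp8, Thbs1 and Cst3 the call was lost without any of the 4 similar libraries.

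Antioxidant genes rose in part. Of 36 tested targets of Nrf2, 14 rose, none fell and 22 were not called (median 0.41); DESeq2 called 20 higher and none lower and limma 12 and none. On that list 25 were higher and 1 lower of 36 without the 2 libraries, and 4 to 6 higher and none lower without any 1 of the 4 similar ones. Gsr, glutathione reductase, was at 109, 114 and 112 CPM in control and 295, 307 and 287 CPM with LPS+RCMNs. Neither group varied much, and the log2 fold change was 1.40 ± 0.07 (SE) (edgeR adjusted p = 0.00035). Gclm, the regulatory subunit of the enzyme that starts glutathione synthesis, rose by 1.12 ± 0.17 log2 units, from 32.8, 50.8 and 45.5 CPM. Slc7a11, the cystine importer, was at 24.4, 10.7 and 9.51 CPM and 83.6, 41.6 and 68.4 CPM and rose by 2.11 ± 0.41 log2 units. Its lowest treated library, replicate 2, was above its highest control, replicate 1. Prdx1, a peroxiredoxin, read 719, 674 and 674 CPM in control and 1173, 1369 and 1258 CPM with LPS+RCMNs, a log2 fold change of 0.88 ± 0.08 (SE). Esd, a formylglutathione hydrolase, rose by 0.99 ± 0.09 log2 units, Blvrb, biliverdin reductase B, by 0.78, and the pentose phosphate enzyme G6pdx by 0.38.

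Hmox1, the haem-degrading enzyme, read 89.7, 185 and 165 CPM in control and 898, 235 and 719 CPM with LPS+RCMNs. All treated libraries were above all controls, but replicate 2 was far below the other treated libraries, and the log2 fold change of 2.08 ± 0.49 (SE) did not pass the test (edgeR adjusted p = 0.0569). Without LPS+RCMNs replicate 2 it was 2.46 and called. Srxn1, sulfiredoxin, was at 1.12 ± 0.26 (SE) and also not called, and Nqo1, a classical Nrf2 target, was not tested, at 0 to 0.761 CPM. Without the 2 libraries that stood apart Srxn1 was called higher, at 1.07, as it was with a term for them, at 1.14. Among 32 scavengers of reactive oxygen species 8 rose and 1 fell, with a median of 0.10; 12 were higher and 4 lower of 32 without the 2 libraries, and 4 to 5 higher and 1 lower without any 1 of the 4 similar ones. Prdx5, a mitochondrial and peroxisomal peroxiredoxin, was at 104, 108 and 109 CPM and 282, 239 and 262 CPM (log2 fold change 1.29 ± 0.09 (SE)), and Sod2, the mitochondrial superoxide dismutase, rose by 0.93 ± 0.12. Selenop fell from 259, 268 and 283 CPM to 102, 85.8 and 109.6 CPM, a log2 fold change of -1.44 ± 0.11 (SE) (edgeR adjusted p = 0.00105). Of 10 genes of the NADPH oxidase, which makes superoxide, 2 rose: Cybb, its catalytic chain, by 0.61 ± 0.11 and the GTPase Rac2 by 0.88 ± 0.07; with 6 libraries edgeR called none lower, 2 were lower at an unadjusted p under 0.05 and DESeq2 and limma called 1 lower. On that list 4 were higher and 4 lower of 10 without the 2 libraries, and 1 higher and none lower without any 1 of the 4 similar ones; with a term for the 2 libraries edgeR called 4 higher and 2 lower. Gsr, Prdx1, Esd, Prdx5, Selenop and Rac2 were called in every alternative fit that gave a value. For Slc7a11, G6pdx and Cybb the call was lost without any of the 4 similar libraries and for Sod2 without control replicate 2 or 3. For Blvrb the call was lost without control replicate 2 or 3 or LPS+RCMNs replicate 3 and for Gclm without control replicate 3 or LPS+RCMNs replicate 1 or 3. Glrx (1.09), Mgst2 (0.98), Msrb1 (0.95) and Cat (0.45) were further called members of these lists, by log2 fold change. For Glrx the call was lost without LPS+RCMNs replicate 1 or 3 and for Mgst2 without any of the 4 similar libraries. For Cat the call was lost without any of the 4 similar libraries or LPS+RCMNs replicate 2 and for Msrb1 without control replicate 2 or 3 or LPS+RCMNs replicate 3.

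Several genes for iron storage, iron transport and haem synthesis rose. Of 28 tested, 9 rose and none fell (median 0.29); 19 were higher and 2 lower of 28 without the 2 libraries, and 5 to 6 higher and none lower without any 1 of the 4 similar ones. DESeq2 called 10 higher and 1 lower. The list shares Lcn2, Fth1, Ftl1, Blvrb and Slc48a1 with lists above. Fth1, the ferritin heavy chain, was among the most abundant transcripts, at 4700.2 ± 484 FPKM (SD, n = 3) in control and 8251 ± 208 FPKM (SD, n = 3) with LPS+RCMNs. In CPM it was 4434, 3944 and 3824 in control and 7895, 7452 and 7457 with LPS+RCMNs, without overlap, and the log2 fold change was 0.90 ± 0.08 (SE); processed copies of this gene exist and may share its reads. Alas1, the first enzyme of haem synthesis, was at 67.3, 65.8 and 59.3 CPM and 188, 204 and 182 CPM, a log2 fold change of 1.58 ± 0.09 (SE) (edgeR adjusted p = 0.000392). Slc11a1, the metal transporter of phagosomes, was at 117, 113 and 121 CPM and 243, 232 and 253 CPM and rose by 1.05 ± 0.07 log2 units. Its relative Slc11a2 rose by 0.94 log2 units and Cp, ceruloplasmin, by 1.62. Metallothioneins did not pass the test: Mt1 was at 0.26 ± 0.28 (SE) and Mt2 at 0.38 ± 0.81 (SE). The level of Mt2 was 3.67, 64.9 and 70.9 CPM in control and 73.3, 40.4 and 67.7 CPM with LPS+RCMNs, with control replicate 1 far below the other 5 libraries. Of 22 genes for metallothioneins and for transport of zinc and other metals, Slc39a4 and Slc31a2 rose, by 1.01 and 0.94. With 6 libraries edgeR called none lower, and DESeq2 called 4 higher and none lower. Without the 2 libraries that stood apart, 12 were higher and 2 lower of 22. Fth1, Alas1, Slc11a1 and Slc11a2 were called in every alternative fit that gave a value. For Slc31a2 the call was lost without any of the 4 similar libraries, for Cp without any of the 4 similar libraries or control replicate 1 and for Slc39a4 without control replicate 3 or LPS+RCMNs replicate 3.

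Stress responses other than the antioxidant one showed few calls with 6 libraries. Of 26 heat shock chaperone genes, Hsp90aa1 rose by 0.52 ± 0.11 log2 units and the cochaperone Bag3 by 0.42 ± 0.09, and none fell; DESeq2 called 2 higher and limma none, with 9 higher and 5 lower without the 2 libraries. Hspa1a and Hspa1b, the inducible HSP70 genes, were not tested, at 0 to 1.21 CPM. Of 31 unfolded protein response genes none was called by edgeR with 6 libraries, with a median of 0.43. At an unadjusted p under 0.05, 12 were higher and none lower; DESeq2 called 5 higher, limma none, and without the 2 libraries that stood apart 24 were higher and none lower. Hspa5, the main chaperone of the endoplasmic reticulum, read 654, 1963 and 1841 CPM in control and 2981, 1785 and 2648 CPM with LPS+RCMNs. Its groups overlapped, with control replicate 1 far below the rest, and its log2 fold change was 0.73 ± 0.40 (SE), not called. On the integrated stress response list of 47 genes Slc7a11 alone was called higher and none lower, with 5 lower at an unadjusted p under 0.05 and 2 by DESeq2; without the 2 libraries 26 were higher and 9 lower. Of 34 genes for p53 targets and survival, Mdm2, the ligase that degrades p53, rose by 1.28 ± 0.27 log2 units and Ccng1 by 0.74 ± 0.07, while Sesn1 fell by 1.01; 19 were higher and 8 lower of 34 without the 2 libraries, and 1 higher and none lower without any 1 of the 4 similar ones. Ccng1 was called in every alternative fit that gave a value. For Bag3 and Sesn1 the call was lost without any of the 4 similar libraries, for Hsp90aa1 without any of the 4 similar libraries or LPS+RCMNs replicate 2 and for Mdm2 without any of the 4 similar libraries or control replicate 1.

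Genes of dead-cell uptake split: the C1q chains, Gas6, Cd209a and Dock1 fell, and Trem1, Cd47, Marco, Itgam and Itgb2 rose. Of 38 tested, 5 rose and 6 fell (median -0.0063); 17 were higher and 13 lower of 38 without the 2 libraries, and 0 to 1 higher and 2 to 5 lower without any 1 of the 4 similar ones. C1qa, C1qb and C1qc, neighbours on chromosome 4, encode the chains of C1q, which coats dying cells and starts the classical complement pathway. C1qa read 31.2, 39.7 and 43.2 CPM in control and 14.8, 14.1 and 16 CPM with LPS+RCMNs, and fell by 1.35 log2 units (SE 0.14). C1qb read 118, 151 and 150.3 CPM and 72, 77.5 and 76.4 CPM, and fell by 0.89 log2 units (SE 0.11). C1qc read 85.8, 95.7 and 98.8 CPM and 35.3, 31.5 and 36.3 CPM, a log2 fold change of -1.44 ± 0.10 (SE) (edgeR adjusted p = 0.00081). For each chain every control was above every treated library. Between the 2 libraries that stood apart the log2 ratios were -1.15, -0.61 and -1.45. Gas6, which bridges dying cells to Mer and Axl, fell by 1.27 log2 units, Cd209a, a lectin, by 2.32 and Dock1, an activator of Rac in engulfment, by 0.52. Trem1, which amplifies inflammatory signals, rose by 1.48 ± 0.19 log2 units and Cd47 by 1.00. Mertk, a receptor for dying cells, was at -0.36 ± 0.32 (SE), not called. C1qa and C1qc were called in every alternative fit that gave a value. For Dock1, Cd47, Itgam, Itgb2 and Marco the call was lost without any of the 4 similar libraries, for C1qb and Trem1 without LPS+RCMNs replicate 3 and for Gas6 and Cd209a without control replicate 2 or 3 or LPS+RCMNs replicate 3.

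On the list of alveolar macrophage identity 5 of 23 tested rose and 1 fell (median 0.19); 14 were higher and 6 lower of 24 without the 2 libraries, and 1 higher and 1 lower without any 1 of the 4 similar ones. Fabp4, a fatty acid carrier of alveolar macrophages, was at 13.1, 12.7 and 14.5 CPM in control and 83.9, 56.2 and 68.5 CPM with LPS+RCMNs. All treated libraries were above all controls, with a log2 fold change of 2.37 ± 0.16 (SE) (edgeR adjusted p = 0.00081). Fabp5 rose by 0.83 ± 0.15 log2 units and Siglec1, a sialic acid receptor, by 0.90 ± 0.16. Marco, a scavenger receptor for bacteria and particles, rose by 3.62 ± 0.66 log2 units, from 0, 0.1 and 0.15 CPM to 0.754, 1.41 and 1.05 CPM, on 5 control counts. Mrc1, the mannose receptor, was at 322, 253 and 257 CPM and 144, 128 and 145 CPM; control replicate 1 was highest, the groups did not overlap, and Mrc1 fell by 1.00 log2 units (SE 0.12). Among 22 genes of alternative activation 1 rose and 3 fell (10 higher and 10 lower without the 2 libraries). Il4ra, the receptor for interleukin-4, rose by 0.86 ± 0.09 log2 units, while the transcription factors Klf4 and Irf4 fell by 1.56 and 1.30, from low levels. Arg1, arginase, read 80.5, 228 and 208 CPM in control and 168, 79.7 and 156 CPM with LPS+RCMNs. The groups overlapped and the log2 fold change of -0.35 ± 0.42 (SE) was not called. Without the 2 libraries that stood apart it was -0.43 and called lower, and with a term for them -0.30 and not called. Fabp4, Mrc1 and Il4ra were called in every alternative fit that gave a value. For Fabp5, Siglec1, Marco and Klf4 the call was lost without any of the 4 similar libraries and for Irf4 without any of the 4 similar libraries or LPS+RCMNs replicate 2. Ear1 (2.50, on 13 control counts) was another called member of these lists, by log2 fold change. For Ear1 the call was lost without any of the 4 similar libraries.

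**Figure D3:**
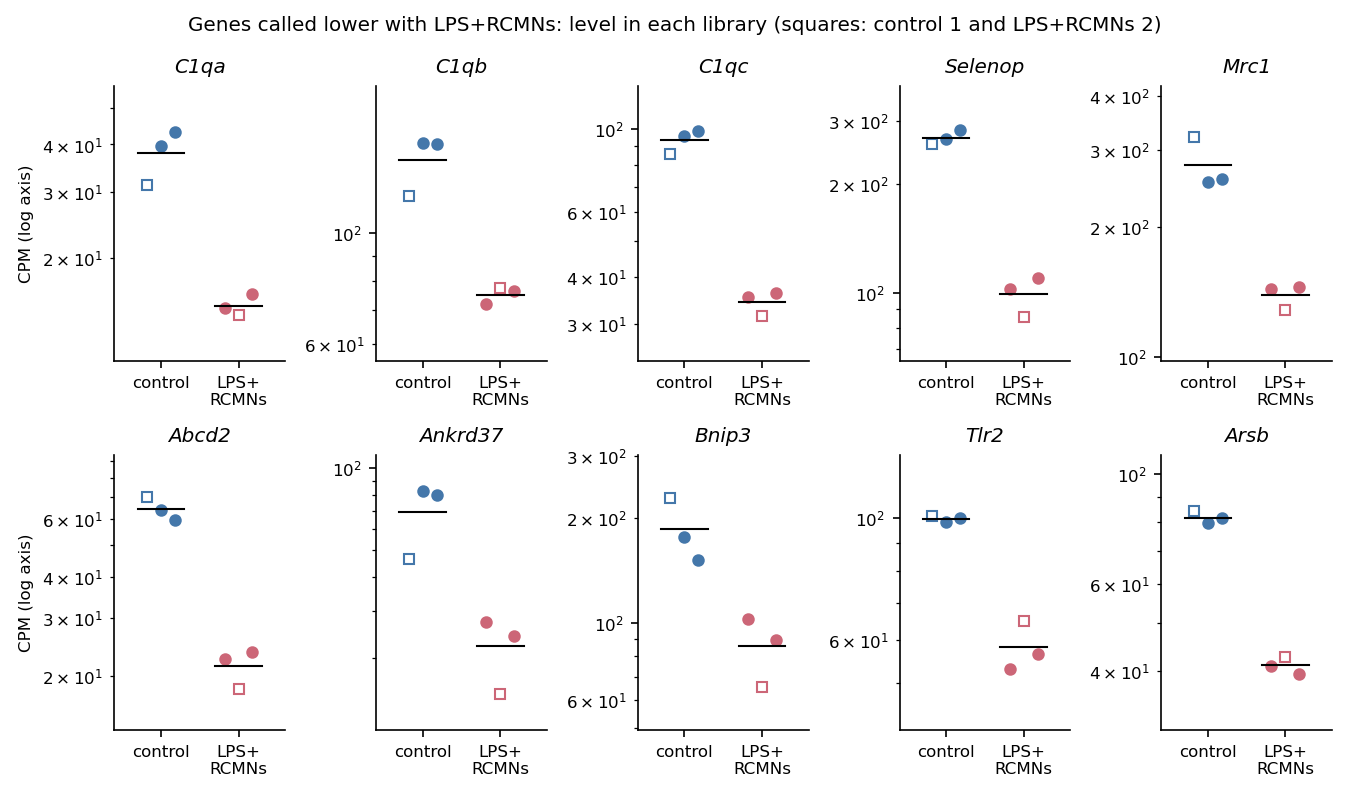
Level of 10 genes called lower with LPS+RCMNs in each of the 6 libraries, in CPM on a log axis, with a line at each group's mean. Open squares are control replicate 1 and LPS+RCMNs replicate 2. The groups do not overlap in any panel, a condition for ranking C1qa, C1qc, Selenop, Abcd2 and Ankrd37 by fold. The falls run from 0.78 (Tlr2) to 1.65 (Ankrd37) on the log2 scale.

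In central metabolism, genes for glycolysis and hypoxia were called in both directions. Of 46 genes for glycolysis and hypoxia 2 rose and 5 fell (median -0.051); 13 were higher and 14 lower of 46 without the 2 libraries, and 1 higher and 0 to 1 lower without any 1 of the 4 similar ones. Ankrd37 was at 46.2, 82.3 and 79.7 CPM in control and 27.3, 14.8 and 24.3 CPM with LPS+RCMNs, lowest in replicate 2, and fell by 1.65 log2 units (SE 0.29). Bnip3, which marks mitochondria for removal, was at 228, 176 and 152 CPM and 102, 65.5 and 89.3 CPM, a log2 fold change of -1.11 ± 0.20 (SE). Kdm3a, a histone demethylase, fell by 0.77 log2 units and Pdk1, which restrains pyruvate entry into the citric acid cycle, by 0.51. Pfkfb3, the enzyme that speeds glycolysis, rose from 33.6, 33 and 37.2 CPM to 61.9, 57.3 and 61.6 CPM (log2 fold change 0.80 ± 0.09 (SE)). Pgk1, a glycolytic kinase, rose by 0.33 ± 0.07 log2 units. Among 35 genes around the citric acid cycle Acod1 and Me1 rose and Suclg2 fell (8 higher and 8 lower without the 2 libraries). Acod1, described above, diverts a cycle intermediate to itaconate, and Me1, malic enzyme, rose by 0.73 log2 units. Of 73 genes of oxidative phosphorylation none was called by edgeR, DESeq2 or limma with 6 libraries (median 0.0036), with none higher and 3 lower at an unadjusted p under 0.05 and 9 higher and 11 lower without the 2 libraries. Pfkfb3 was called in every alternative fit that gave a value. For Ankrd37, Bnip3, Pdk1, Pgk1 and Me1 the call was lost without any of the 4 similar libraries, for Suclg2 without any of the 4 similar libraries or control replicate 1 and for Kdm3a without control replicate 2 or 3 or LPS+RCMNs replicate 3. Pfkl (-0.39) was another called member of the list, by log2 fold change. For Pfkl the call was lost without any of the 4 similar libraries or control replicate 1.

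Lipid genes gave isolated calls with 6 libraries. Abcd2, a peroxisomal importer of very long fatty acids, was at 70.2, 63.8 and 59.5 CPM in control and 22.5, 18.3 and 23.7 CPM with LPS+RCMNs. The groups were far apart and the log2 fold change was -1.58 ± 0.12 (SE) (edgeR adjusted p = 0.00131). Of 37 genes for fatty acid oxidation 1 rose and 2 fell (13 higher and 12 lower without the 2 libraries). Of 29 targets of the sterol receptor LXR, Arl4c alone was called with 6 libraries, at -0.80; there edgeR and limma called none higher, 5 were higher at an unadjusted p under 0.05 and DESeq2 called 4 higher. On that list 13 were higher and 9 lower of 29 without the 2 libraries, and none higher and none lower without any 1 of the 4 similar ones; with a term for the 2 libraries 4 were higher and 3 lower. Abca1, the cholesterol exporter, was at 62.8, 43.1 and 49.1 CPM and 53, 32 and 56.5 CPM, overlapping, with a log2 fold change of -0.13 ± 0.23 (SE), not called; without the 2 libraries it was 0.25 and called higher. None of 26 cholesterol synthesis genes was called by edgeR with 6 libraries (median -0.22). At an unadjusted p under 0.05, 8 were lower and none higher; DESeq2 called 2 lower and limma 1, and without the 2 libraries 21 were lower and none higher. Hmgcs1, an early enzyme of that pathway, read 323, 338 and 327 CPM in control and 196, 319.6 and 195 CPM with LPS+RCMNs, where replicate 2 lay near the controls. In eicosanoid synthesis Ptgs2 and the prostacyclin receptor Ptgir (0.62) rose, while Ptgs1, the constitutive cyclooxygenase, fell by 0.67 log2 units and Ltc4s, leukotriene C4 synthase, by 1.66 (8 higher and 4 lower without the 2 libraries). Abcd2 was called in every alternative fit that gave a value. For Ptgir, Ptgs1 and Ltc4s the call was lost without any of the 4 similar libraries and for Arl4c without any of the 4 similar libraries or LPS+RCMNs replicate 2. Acsl1 (0.31) and Acadm (-0.45) were further called members of these lists, by log2 fold change. For Acsl1 the call was lost without any of the 4 similar libraries and for Acadm without any of the 4 similar libraries or control replicate 1.

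Lysosomal genes gave 4 rises and 3 falls among 66 tested (median 0.14); 42 were higher and 10 lower of 66 without the 2 libraries, and 0 to 1 higher and 2 lower without any 1 of the 4 similar ones. Ctsd, cathepsin D, was at 1298, 1568 and 1518 CPM in control and 3465, 2385 and 3128 CPM with LPS+RCMNs and rose by 1.03 ± 0.15 log2 units. Arsb, arylsulfatase B, was at 84.3, 79.7 and 81.5 CPM and 41.1, 42.8 and 39.5 CPM, apart in every library, and fell by 0.99 log2 units (SE 0.08). Ctse, cathepsin E, fell from 7.29, 8.22 and 9.16 CPM to 2.16, 1.47 and 2.52 CPM. Sqstm1, an autophagy receptor and Nrf2 target, rose by 0.50 log2 units; of the other autophagy genes Atg16l2 fell by 1.12 and Pik3c3 by 0.48, out of 45 tested. The shares called on the autophagy, antigen presentation and LXR lists, 6.67%, 6.45% and 3.45%, were near the 5.25% over all genes with 6 libraries; the autophagy list had 13 higher and 7 lower without the 2 libraries and that of antigen presentation 13 higher and 6 lower without the 2 libraries. In antigen presentation Cd80, a costimulator of T cells, rose by 0.87 log2 units and H2-Q4 fell by 0.74, out of 31, and H2-Q4 has close copies that may share reads. Arsb and Ctse were called in every alternative fit that gave a value. For Sqstm1, Atg16l2, Cd80 and H2-Q4 the call was lost without any of the 4 similar libraries, for Pik3c3 without any of the 4 similar libraries or LPS+RCMNs replicate 2 and for Ctsd without control replicate 3 or LPS+RCMNs replicate 3. Ctsk (2.49, on 20 control counts), Atp6v0c (0.43), Atp6ap2 (0.39) and Man2b1 (-0.57) were further called members of these lists, by log2 fold change. For Atp6v0c, Atp6ap2 and Man2b1 the call was lost without any of the 4 similar libraries and for Ctsk without any of the 4 similar libraries or control replicate 1.

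Proliferation genes were called in both directions: 3 of 62 rose and 3 fell; 18 were higher and 28 lower of 62 without the 2 libraries, and 0 to 1 higher and none lower without any 1 of the 4 similar ones. Among the rises, Rrm2, a subunit of ribonucleotide reductase, rose by 0.67 ± 0.09 log2 units and Ccne1, cyclin E1, by 0.44, whereas Ccnd2, cyclin D2, fell by 0.86, the cell cycle inhibitor Cdkn1b by 0.82 and the kinetochore gene Cenpf by 0.78. None of 83 cytosolic ribosomal protein genes was called by edgeR with 6 libraries (median -0.13, range -0.30 to 0.08). At an unadjusted p under 0.05, 20 were lower and none higher; DESeq2 called 6 lower and limma 3, and without the 2 libraries 64 were lower and 1 higher. Of 78 mitochondrial ribosomal protein genes Mrpl52 alone was called, at 1.25 ± 0.15 (SE), with 4 higher and 10 lower without the 2 libraries. Glucocorticoid targets gave 1 rise and 4 falls among 18 (median 0.10); 7 were higher and 6 lower of 18 without the 2 libraries, and none higher and none lower without any 1 of the 4 similar ones. The falls included Il1r2 and Nr3c1, the receptor itself, which fell by 0.49 log2 units. Among 40 transcription factors of macrophages Cebpd rose by 0.97 ± 0.13 log2 units and Tfec by 2.56 from low levels, and Klf4 and Irf4 fell (14 higher and 12 lower without the 2 libraries). For Ccne1, Ccnd2, Cdkn1b, Cenpf and Tfec the call was lost without any of the 4 similar libraries and for Nr3c1 without any of the 4 similar libraries or control replicate 1. For Cebpd the call was lost without control replicate 2 or 3 or LPS+RCMNs replicate 3 and for Rrm2 without control replicate 3 or LPS+RCMNs replicate 1 or 3. Zbtb16 (-0.93) was another called member of these lists, by log2 fold change. For Zbtb16 the call was lost without any of the 4 similar libraries or control replicate 1.

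**Figure D4:**
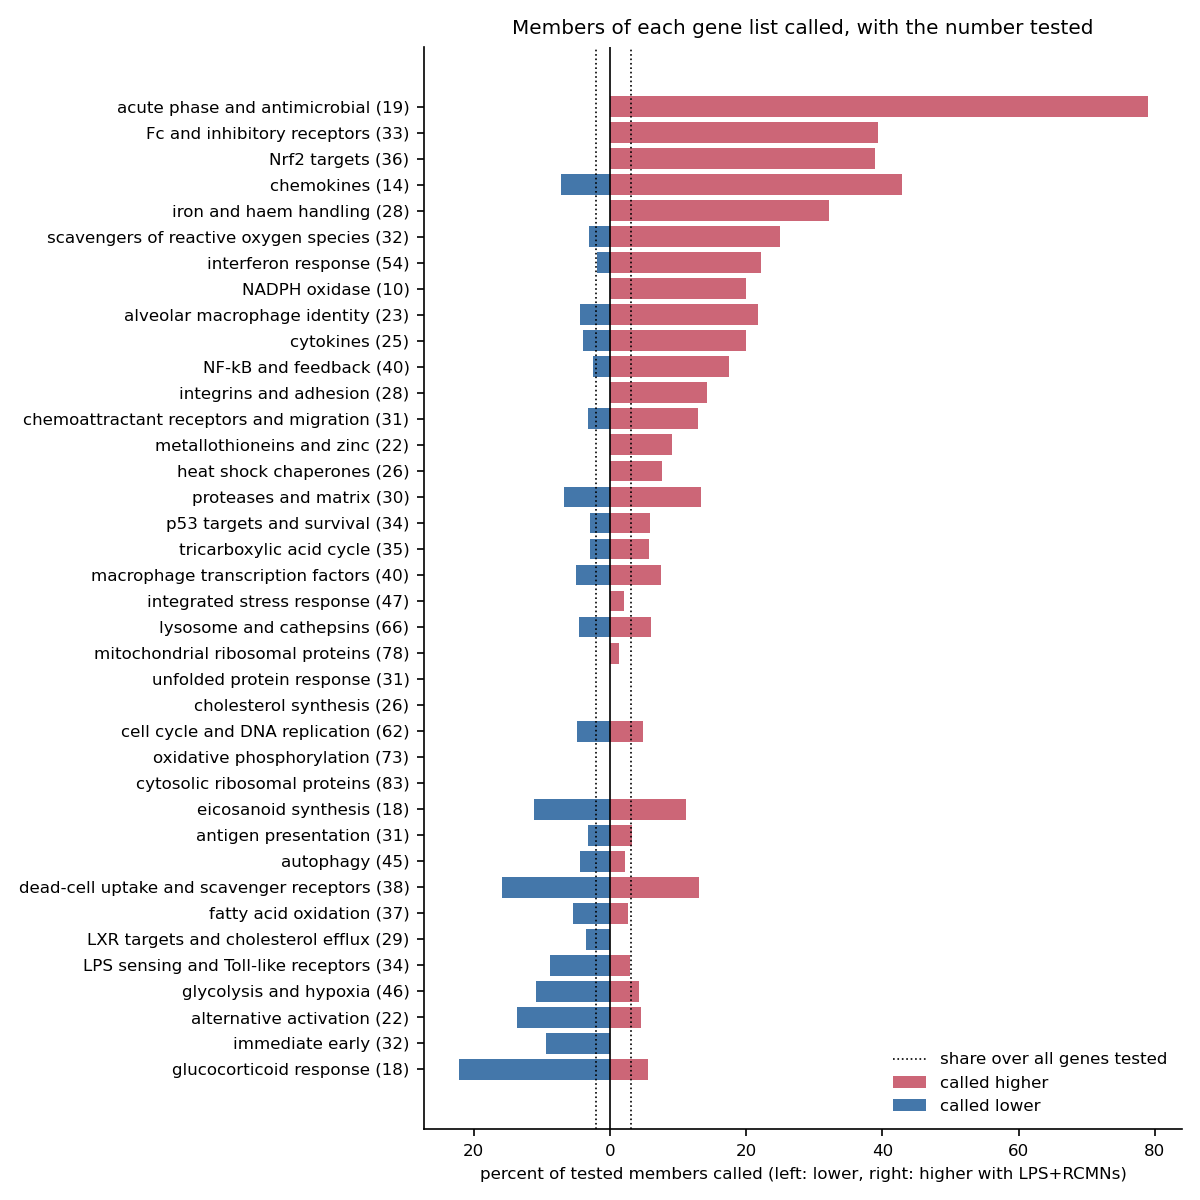
Percent of the tested members of each of 38 gene lists called lower (bars to the left) and higher (bars to the right) with LPS+RCMNs, edgeR with 6 libraries; the number tested stands in brackets and dotted lines mark the shares over all genes tested, 2.11% lower and 3.14% higher. The list of acute phase and antimicrobial genes has the largest share of rises, 15 of 19, and that of glucocorticoid response the largest share of falls, 4 of 18, none of them called without any 1 of the 4 similar libraries.

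Measured per length, the largest gains in level among called genes were those of Fth1, Spp1, Ccl2, Lyz2, Saa3 and Ctsd, and the largest losses those of Serinc3, Cst3, Selenop, Pf4, C1qb and Bnip3. Fth1 gained most, with the values given above. Spp1, osteopontin, a secreted adhesion protein, was at 1861 ± 533 FPKM (SD, n = 3) in control and 4753 ± 134 FPKM (SD, n = 3) with LPS+RCMNs. Control replicate 1 was lowest at 1626 CPM, against 3037 and 2817 CPM in the other controls and 7033, 6469 and 6725 CPM with LPS+RCMNs. Ccl2 was at 274 ± 175 FPKM (SD, n = 3) in control and 2093 ± 940.4 FPKM (SD, n = 3) with LPS+RCMNs. Lyz2 was at 2375 ± 153 FPKM (SD, n = 3) in control and 3585 ± 486 FPKM (SD, n = 3) with LPS+RCMNs. Among these genes the spread within the treated group was widest for Ccl2. Saa3 was at 25.1 ± 10.9 FPKM (SD, n = 3) in control and 1081 ± 100.0 FPKM (SD, n = 3) with LPS+RCMNs. Ctsd was at 805 ± 61.7 FPKM (SD, n = 3) in control and 1550.2 ± 265 FPKM (SD, n = 3) with LPS+RCMNs. In each of these genes the means differed by more than either SD. The largest loss in level was that of Serinc3, a membrane protein that restricts retroviruses, at 588 ± 74.4 FPKM (SD, n = 3) in control and 280.2 ± 7.43 FPKM (SD, n = 3) with LPS+RCMNs. Its log2 fold change was -0.96 ± 0.09 (SE). Cst3 was at 433 ± 12.1 FPKM (SD, n = 3) in control and 278 ± 6.17 FPKM (SD, n = 3) with LPS+RCMNs. Serinc3 was called in every alternative fit that gave a value. For Spp1 the call was lost without control replicate 3 or LPS+RCMNs replicate 1 or 3.

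Other large falls and rises among well-expressed genes followed. 9930111J21Rik1, whose promoter is shown above, read 30.6, 31.5 and 31.5 CPM in control and 9.91, 8.27 and 13.7 CPM with LPS+RCMNs, a log2 fold change of -1.55 ± 0.18 (SE). Abca9, a lipid transporter, read 161, 141 and 152 CPM in control and 70.4, 47.9 and 72.1 CPM with LPS+RCMNs and fell by 1.25 log2 units (SE 0.16). Neurl3, a ubiquitin ligase, read 63.3, 73 and 78.9 CPM and 31.6, 32.2 and 33.2 CPM and fell by 1.15 log2 units (SE 0.10). Groups without overlap were a condition for ranking these 3 genes. Ocstamp, a fusion protein of osteoclasts and giant cells, fell by 1.49 log2 units, Kif21b, a kinesin, by 1.21, Ctdsp2, a phosphatase, by 1.17, Rnf167, a ubiquitin ligase, by 1.19 and Macrod1 by 1.12. The unnamed locus LOC115487803 fell by 1.67 log2 units. Among the rises, Slc28a2, a nucleoside importer, read 10.2, 6.31 and 6.36 CPM in control and 69.4, 38.7 and 63.3 CPM with LPS+RCMNs, a log2 fold change of 2.90 ± 0.28 (SE). Lix1 read 6.27, 5.01 and 4.55 CPM and 35.2, 35.9 and 33.9 CPM, with little spread, a log2 fold change of 2.73 ± 0.14 (SE). 9930111J21Rik1, Abca9, Neurl3, Slc28a2 and Lix1 were called in every alternative fit that gave a value. For Kif21b, Rnf167 and Macrod1 the call was lost without any of the 4 similar libraries and for Ocstamp without any of the 4 similar libraries or LPS+RCMNs replicate 2. For LOC115487803 the call was lost without control replicate 1, 2 or 3 or LPS+RCMNs replicate 3 and for Ctdsp2 without control replicate 3 or LPS+RCMNs replicate 1 or 3.

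**Figure D5:**
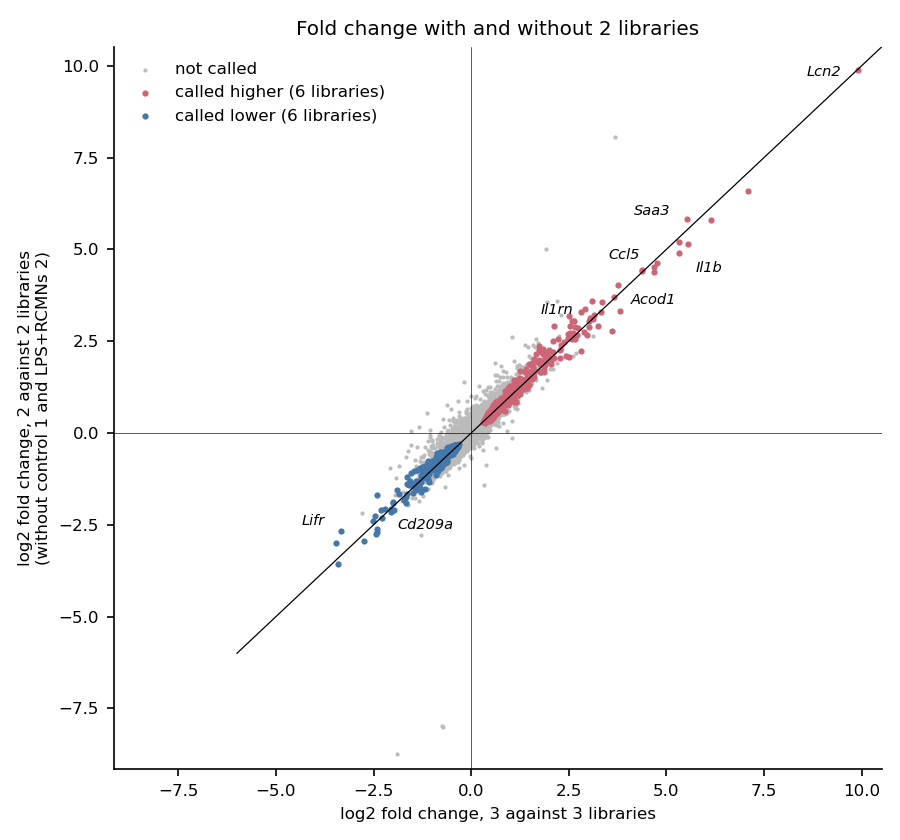
Log2 fold change of each gene tested in both fits, with all 6 libraries (x axis) against the fit without control replicate 1 and LPS+RCMNs replicate 2 (y axis); the diagonal marks equal values. Red and blue points are the 360 genes called higher and 242 called lower with 6 libraries, which keep their direction in the 2 against 2 fit, with Lcn2 at 9.91 and 9.90, and Lifr at -3.33 and -2.67.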

How the data were processed

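RNA from MH-S cells was taken up in TRIzol, and its polyadenylated part was made into libraries with a BGI kit, per the labels' protocols. The authors deposited, per the file headers, an estimated count and an FPKM for every gene and library; counts above 0 were not whole in 77.8% of cases (tolerance 0.001), so they are expected counts. The submitters' processing notes name mm10, and the series' design text names FastQC. Aligner, counter, strand setting and annotation: not given in the sources used here. Columns were assigned through the library codes of the sample descriptions. For 4 per-sample columns no sample had the code, and they were not used.

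The expected counts were rounded, filtered with filterByExpr and scaled by TMM (factors 0.958 to 1.06). The main test was edgeR's quasi-likelihood test on the 6 libraries (R 4.3.3, edgeR 4.0.16, limma 3.58.1), Benjamini-Hochberg adjusted over 11464 genes at 0.05, and it was tested on simulated data. SE is the absolute log2 fold change over the square root of F. Common BCV was 15.3%, with prior df 3.31 and residual df 4. A gene can pass the filter through its higher group alone; list members not tested had few counts or were not listed. Alternatives were: all 8 libraries; the replicate block; leaving out each library; leaving out both libraries that stood apart, or a term for them; no filter; FPKM of 5 in 2 libraries; limma on log2(FPKM + 1); DESeq2 1.42.0; size factors by median ratio; removal of a loess length trend (span 0.4); and a fold minimum. Fold change and gene length had a rank correlation of -0.09 across genes.

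Named genes were, from calls with separate groups and a mean FPKM of 5 or more, the top 15 by fold in each direction, then up to 4 called genes of lowest p for each list and direction, the 6 largest gains and losses in FPKM and a set of fixed genes. Further genes were named once their values were known. Lists, members and alternatives were chosen with earlier results of these data known, including which 2 libraries stood apart. RefSeq (GRCm38.p6) matched 17468 of 17518 gene IDs (99.7%) and gave promoters for 482 of the 602 called genes. A few called genes are not reported here.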

Additional observations from a re-analysis of the deposited data

How the results depend on the processing

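The number of calls (360 higher, 242 lower) moved by more than 1.5 times with DESeq2 (751 higher, 537 lower), the fit without control replicate 1 and LPS+RCMNs replicate 2 (2688, 2511), the fit with a term for them (1354, 1180), and, for lower calls only, the fit of all 8 libraries (516, 385). A fold minimum of 1 on the log2 scale left 168 and 76. Leaving out each library in turn gave 86 to 705 higher and 25 to 374 lower. With the replicate number as a block, 83 were higher and 21 lower, all of them among the 602. Deviations of same-numbered libraries from their group means correlated at -0.33, -0.36 and 0.24. Those of control replicate 1 and LPS+RCMNs replicate 2, which stood apart, correlated at 0.41. These 2 libraries enter the group means and bear different numbers, so the correlations cannot decide whether the numbers pair libraries. The cause of the changes in the number of calls was not tested. Other filters, median-ratio size factors and removal of a trend on gene length gave 265 to 393 higher and 182 to 255 lower. On log2(FPKM + 1), limma called 282 higher and 337 lower, a share of rises of 45.6% against 59.8%, with the median of all genes at -0.07. Among the named genes tested, 1931 values kept their call status, 459 lost their call and 31 gained one. Another 2 changed sign and were called: Tlr4 (0.33) and Abca1 (0.25) without the 2 libraries, from -0.12 and -0.13 with 6. The 1931 include changes of sign where neither fit called the gene. Over the alternatives Mt1 went down to -0.015 and Mt2 to -0.16, from 0.26 and 0.38 in the main fit. Precision is limited by 3 libraries a group and, for Lcn2, Il1b, Csf3, Nos2 and Marco, by control counts near the floor.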

Other observations

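Most called genes stood on none of the 38 gene lists: 436 of the 602, 240 higher and 196 lower. The genes in this section were chosen after their values were seen. Among surface and secreted proteins, Procr, the protein C receptor, read 10.5, 13.2 and 11.6 CPM in control and 62.2, 35.9 and 53 CPM with LPS+RCMNs and rose by 2.10 ± 0.21 (SE). Cpd, carboxypeptidase D, read 165, 199 and 193 CPM and 622, 658 and 613 CPM, with groups far apart, and rose by 1.76 ± 0.10 (SE). Sema3e, a semaphorin, rose by 1.79 ± 0.12 and Qsox1, a secreted disulfide-forming enzyme, by 2.22 ± 0.21. Gk, glycerol kinase, read 77.8, 79.2 and 73.2 CPM and 218, 185 and 203 CPM, a log2 fold change of 1.39 ± 0.09 (SE). Pou2f2, a transcription factor better known in B cells, rose by 1.87 ± 0.14 and Ass1, which recycles citrulline to arginine, by 0.98 ± 0.12. Each of these genes was called in every one of the 16 alternative fits.

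Among the falls outside the lists, Lifr, the receptor for leukaemia inhibitory factor, read 18.6, 12.3 and 11.8 CPM in control and 1.94, 0.435 and 1.84 CPM with LPS+RCMNs. Every control was far above every treated library, and the log2 fold change was -3.33 ± 0.45 (SE). Lmo2 and Lyl1, partners in blood cell transcription complexes, fell by 0.93 and 0.97. Zfp36l1, which marks messenger RNAs for decay, fell by 0.80 and was called in every alternative fit.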
